A study of Brassica napus with 2 samples.

Results

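Aux/IAA proteins are short-lived repressors of auxin signaling. They bind auxin response factors (ARFs) and hold back the genes that ARFs activate. Auxin joins them to TIR1/AFB receptors, which mark them for degradation, and many *Aux/IAA* genes are themselves switched on by auxin, so that the pathway makes its own repressors anew. *IAA29* of *Arabidopsis* belongs to this family, responds to auxin, shade and warmth, and is a known target of the PIF4 and PIF5 growth regulators in that species.

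In *Brassica napus*, an allotetraploid with an A and a C subgenome, 4 genes have *Arabidopsis IAA29* (AT4G32280) as their ortholog, out of 119 *Aux/IAA* genes. All 4 had values, as had 93 *Aux/IAA* genes in all, among 63193 genes with values. They were chosen by orthology, but the group was proposed because of its FPKM values in the IAA and control libraries described here, so that its response to auxin is given as a description. The genes form 2 homeologous pairs, which are copies on matching chromosomes of the subgenomes. In the Darmor-*bzh* genome v4.2, *BnaA01.IAA.1* (BnaA01g04710D) lies on chromosome A01 from 2199469 to 2200723, and its homeolog *BnaC01.IAA.1* (BnaC01g06240D) on chromosome C01 from 3291259 to 3292575. *BnaA03.IAA.7* (BnaA03g51960D) lies on chromosome A03 from 27060960 to 27062111, and its homeolog *BnaC07.IAA.5* (BnaC07g43730D) on chromosome C07 from 42642849 to 42644065. Each of these genes has 4 exons and belongs to subgroup B4 of the family. The encoded proteins are of similar length, with 231 amino acids for *BnaA01.IAA.1*, 228 for *BnaC01.IAA.1*, 243 for *BnaA03.IAA.7* and 247 for *BnaC07.IAA.5*.

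RNA was measured in 2 libraries, 1 from seedlings kept for 3 h with 1 μM IAA, the natural auxin indole-3-acetic acid, and 1 from control seedlings without IAA, whose treatment the labels give as water and the methods as the same liquid medium. Each library came from 10 pooled seedlings aged 30 days and grown on MS medium, and their sample titles begin with WT, which the labels do not spell out, while the cultivar is not given in the sources used here. Since IAA and control were each sequenced once, no replicate check and no test between them could be made. Whole seedlings were sequenced, so that more cells expressing a gene and more RNA per cell cannot be told apart, and no tissue markers were checked because the gene identifiers were not paired with gene names outside the family. Values are FPKM, fragments scaled to transcript length and to the mapped fragments of the library. The depth estimated from the low values was 18200000 fragments in the IAA library and 23500000 in the control library. Intervals below are exact 95% intervals on fragments estimated from FPKM, and they cover counting error only.

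All 4 *IAA29* orthologs were expressed at several times the control level in the IAA-treated seedlings. *BnaA01.IAA.1* was at 137 FPKM in the IAA library, against 12.8 FPKM in the control library. *BnaC01.IAA.1* was at 77.1 FPKM with IAA and 10.2 FPKM in the control. These homeologs were the best expressed copies of untreated seedlings. In the other pair, *BnaA03.IAA.7* was at 97.5 FPKM with IAA and 7.76 FPKM in the control. *BnaC07.IAA.5* was the weakest copy of both libraries, with 12.2 FPKM with IAA and 0.542 FPKM in the control, which correspond to 122 estimated fragments with IAA and 7 in the control. With IAA this weakest copy reached about the level that *BnaA01.IAA.1* had without it.

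**Figure D1:**
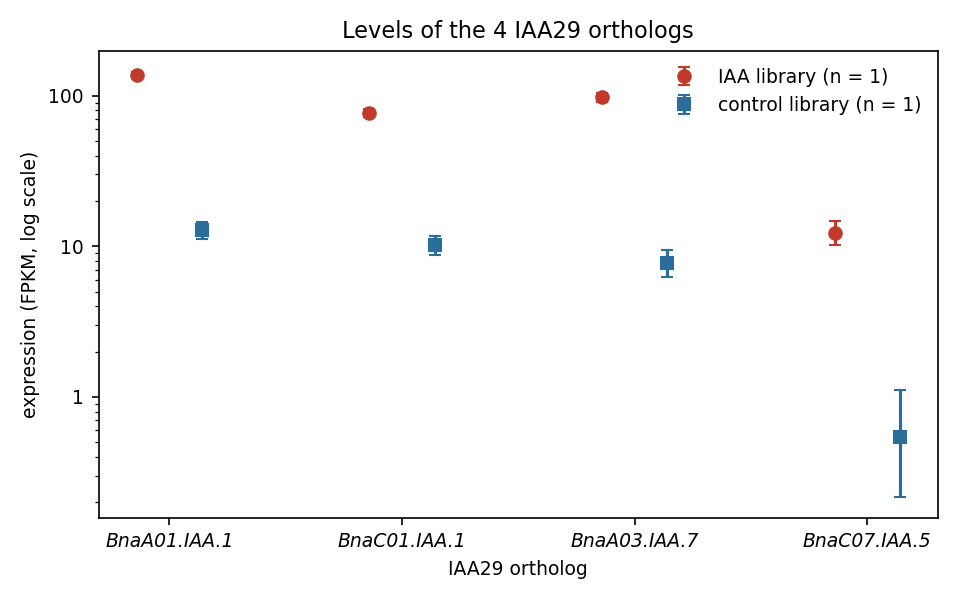
Expression of each *IAA29* ortholog in FPKM on a log scale, with the IAA library as circles and the control library as squares; bars are exact 95% counting intervals from estimated fragments, and each library is 1 pool of seedlings. Every circle lies above the square of the same gene, and *BnaC07.IAA.5* is the lowest gene in both libraries, at 12.2 FPKM with IAA and 0.542 FPKM in the control.

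The folds of IAA over control spanned a 3-fold range. *BnaC07.IAA.5* was 22.6-fold higher with IAA, but its 7 control fragments left a wide interval, from 10.6-fold to 57.2-fold. *BnaA03.IAA.7* was 12.6-fold higher (interval from 10.2-fold to 15.6-fold). *BnaA01.IAA.1* was 10.7-fold higher (interval from 9.31-fold to 12.4-fold), and *BnaC01.IAA.1* was 7.55-fold higher (interval from 6.45-fold to 8.87-fold). On the scale of log2(FPKM + 0.1), which understates the change of genes with low values, the differences were 4.26 for *BnaC07.IAA.5*, 3.63 for *BnaA03.IAA.7*, 3.41 for *BnaA01.IAA.1* and 2.91 for *BnaC01.IAA.1*. Thus 4 of 4 orthologs were higher with IAA by 2-fold or more, and 4 of 4 also by 4-fold or more. Of all 63193 genes, 4.22% exceeded 2-fold on this scale and 1.15% exceeded 4-fold, while 8.68% were lower with IAA by 2-fold or more. Of the genes with 1 FPKM or more in either library, 2.51% were higher by 2-fold or more. Since the group was proposed with its response known, nothing further is read from this count. The median log2 fold change was 3.52 over the 4 orthologs and -0.13 over all genes.

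**Figure D2:**
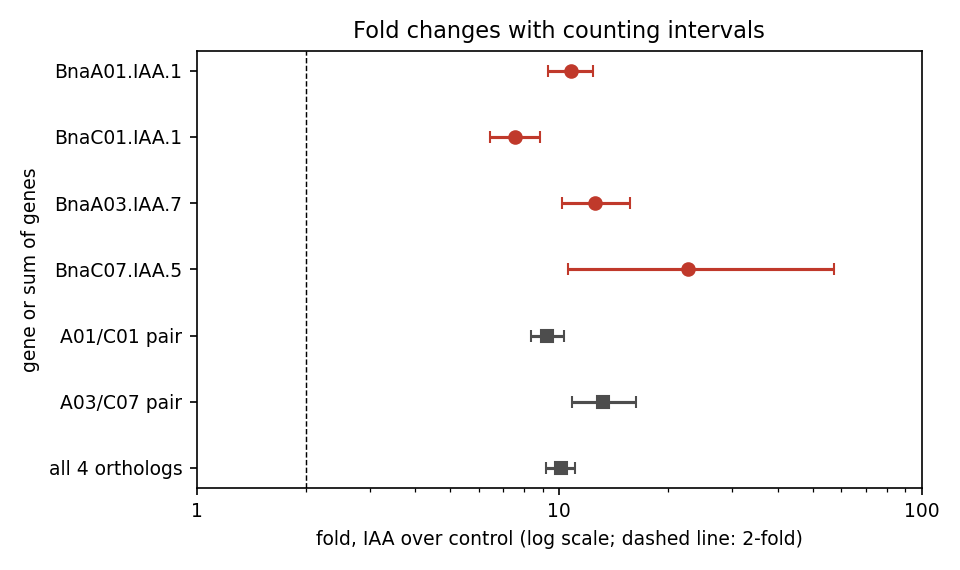
Fold of IAA over control on a log scale for each ortholog (circles, ratio of FPKM) and for the summed estimated fragments of each pair and of all 4 genes (squares), with exact 95% counting intervals. All intervals lie above the dashed line at 2-fold; that of *BnaC07.IAA.5* is the widest, from 10.6-fold to 57.2-fold.

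The order of the folds could be resolved only in part by counting. The fold of *BnaC07.IAA.5* was 1.79 times that of *BnaA03.IAA.7*, with an interval from 0.811 to 4.68 that includes equal folds. Between *BnaA03.IAA.7* and *BnaA01.IAA.1* the ratio of folds was 1.17, again with an interval that includes equality (0.906 to 1.52). *BnaA01.IAA.1* and *BnaC01.IAA.1* differed by more than counting error, with a ratio of 1.42 (interval from 1.14 to 1.76). *BnaC01.IAA.1* thus had the smallest fold, and the ratios of *BnaA03.IAA.7* and *BnaC07.IAA.5* to it were 1.66 (1.27 to 2.18) and 2.98 (1.37 to 7.69). The ratio of *BnaC07.IAA.5* to *BnaA01.IAA.1* was 2.10 (0.970 to 5.40). Whether differences of this size exceed those between pools of seedlings cannot be said from 1 library per condition. These ratios are 6 comparisons of single copies and 1 of pairs, and their intervals are not adjusted for that number.

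Levels differed more between copies than folds did. With IAA, the order was *BnaA01.IAA.1*, *BnaA03.IAA.7*, *BnaC01.IAA.1* and *BnaC07.IAA.5*. Each step exceeded counting error, with level ratios between neighbours of 1.41 (1.30 to 1.52), 1.26 (1.16 to 1.38) and 6.30 (5.22 to 7.66). In the control library *BnaC01.IAA.1* stood above *BnaA03.IAA.7* instead, by 1.32 times (1.02 to 1.70), and *BnaA01.IAA.1* stood above *BnaC01.IAA.1* by 1.25 times (1.02 to 1.53). Both of these intervals nearly reach equality. *BnaA03.IAA.7* was 14.3 times the level of *BnaC07.IAA.5* in the control (6.69 to 36.5). The highest copy was 11.2 times the lowest with IAA and 23.5 times in the control.

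Fragments that fit either homeolog could have been divided between the copies when FPKM was calculated, and the pairs are therefore also given in sum. The counting intervals on folds, levels and shares of single copies do not cover that division. The A01/C01 pair summed to 214 FPKM with IAA and 23.0 FPKM in the control, a 9.32-fold difference. The A03/C07 pair summed to 110 FPKM with IAA and 8.30 FPKM in the control, a 13.2-fold difference. From the summed fragments, the fold of the A03/C07 pair was 1.43 times that of the A01/C01 pair (1.14 to 1.81), which exceeds counting error. Together the 4 orthologs summed to 324 FPKM with IAA and 31.3 FPKM in the control, 10.4-fold higher. The A01/C01 pair provided 66.1% of that sum with IAA and 73.5% in the control.

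The subgenomes did not contribute alike in the pairs. *BnaA01.IAA.1* held 64.0% of the FPKM of its pair with IAA and 55.6% in the control. In estimated fragments these shares were 62.4% (60.6% to 64.2%) with IAA and 53.9% (48.8% to 58.8%) in the control, and the intervals did not overlap. *BnaA03.IAA.7* held 88.8% of the FPKM of its pair with IAA and 93.5% in the control. In estimated fragments its shares were 88.7% (86.6% to 90.5%) with IAA and 93.3% (86.7% to 97.3%) in the control, and the intervals overlapped. The A copy was thus the larger one of both pairs, less so in the A01/C01 pair than in the A03/C07 pair. In FPKM, *BnaA01.IAA.1* was 1.78 times its C copy with IAA and 1.25 times in the control. Its share interval in the control library, however, includes 50%. The share of the A copy was 8.43 percentage points higher with IAA in the A01/C01 pair, whereas in the A03/C07 pair it dropped by 4.63 points. Among the 27 other homeologous *Aux/IAA* pairs with at least 5 FPKM in sum in the control library, the share of the A copy differed between the libraries by a median of 3.06 points in either direction, by more than in the A01/C01 pair for 3 of them and by more than in the A03/C07 pair for 9.

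**Figure D3:**
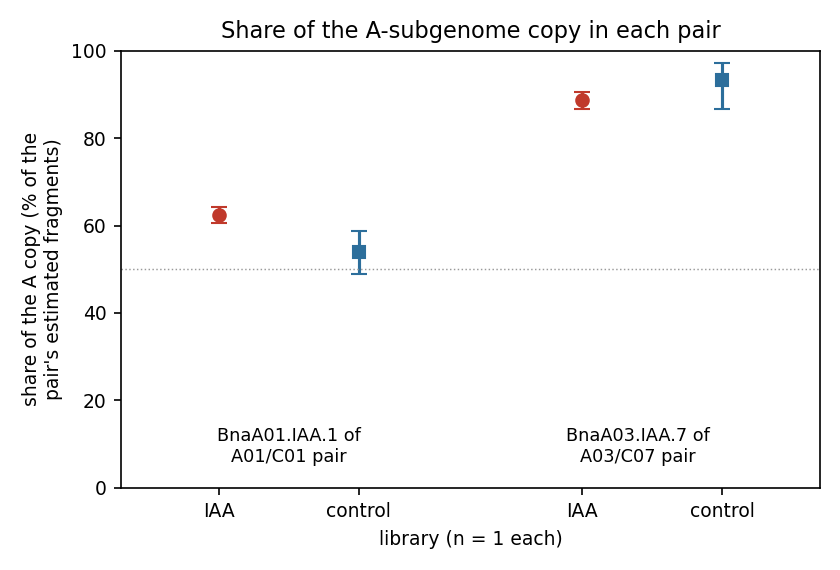
Share of the A-subgenome copy in the estimated fragments of its pair, in percent, in the IAA library (circles) and the control library (squares), with exact 95% binomial intervals; the dotted line marks equal copies. *BnaA01.IAA.1* lies at 62.4% with IAA and 53.9% in the control, and *BnaA03.IAA.7* at 88.7% with IAA and 93.3% in the control.

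Set against the whole transcriptome, 3 of the *IAA29* orthologs were among the most highly expressed genes with IAA, but not in the control. In the IAA library 1.12% of all genes had a higher FPKM than *BnaA01.IAA.1*, and in the control library 19.0% had. For *BnaA03.IAA.7* these shares were 1.81% with IAA and 28.3% in the control, and for *BnaC01.IAA.1* 2.55% with IAA and 23.0% in the control. *BnaC07.IAA.5* was exceeded by 19.2% of the genes with IAA and by 75.6% in the control. The 23936 genes with 5 FPKM or more in the control library included 0.936% that were higher by 2-fold or more with IAA. In the order of these genes by log2 fold change, *BnaA03.IAA.7* took place 3, *BnaA01.IAA.1* place 4 and *BnaC01.IAA.1* place 11. The control level of *BnaC07.IAA.5* was too low for that list. Among the 10088 genes outside the family within 2-fold of its control level, 4.22% exceeded 2-fold with IAA, and 2 genes had a larger log2 fold change.

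**Figure D4:**
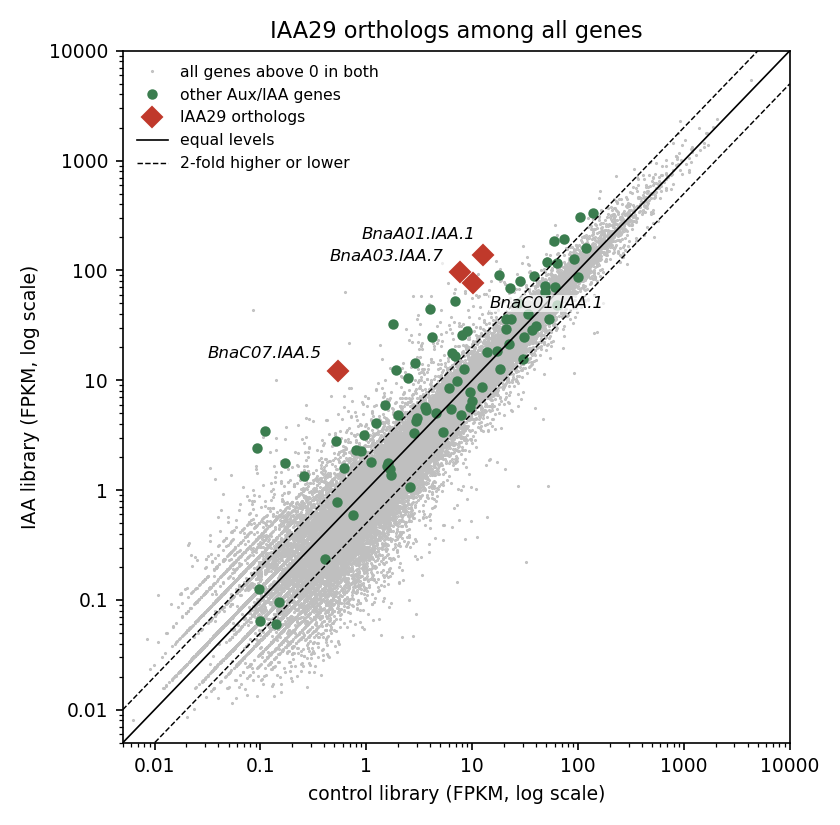
FPKM of each gene in the control library (x axis) and the IAA library (y axis), both on log scales, for genes above 0 FPKM in both libraries, with the other *Aux/IAA* genes as green circles and the *IAA29* orthologs as red diamonds. The diamonds lie at the upper left edge of the cloud, 7.55-fold to 22.6-fold above the line of equal levels.

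Among the 93 *Aux/IAA* genes with values, the *IAA29* orthologs took places 2, 6, 8 and 11 by log2 fold change. These places depend on the added 0.1 FPKM. *BnaC07.IAA.5* was at place 5 with either 1 or 0.01 FPKM added instead. *BnaA03.IAA.7*, *BnaA01.IAA.1* and *BnaC01.IAA.1* were at places 2, 3 and 6 with 1 FPKM added, and at 8, 10 and 13 with 0.01 FPKM. With 0.1 FPKM added, *BnaC07.IAA.5* was the second, after *BnaA09R.IAA.1*, an ortholog of *IAA5*. That gene was listed at 3.37 FPKM with IAA and at 0 FPKM in the control. Set against a floor of 3 control fragments, the ratio of *BnaA09R.IAA.1* is 7.32, which is not a lower limit. Its 17 fragments with IAA and 0 in the control put the exact lower limit of its fold at 5.33. By level, *BnaA01.IAA.1* was at place 6 of the family with IAA and at place 32 in the control. *BnaA03.IAA.7* was at place 10 with IAA and 42 in the control, *BnaC01.IAA.1* at 15 with IAA and 34 in the control, and *BnaC07.IAA.5* at 46 with IAA and 76 in the control. The *IAA29* orthologs made up 9.62% of the summed FPKM of the family with IAA and 1.81% in the control. The family summed to 3369 FPKM with IAA and 1731 FPKM in the control, and the 4 orthologs accounted for 17.9% of this net difference. A higher level with IAA was also common in the rest of the family, where 39.3% of 89 genes exceeded 2-fold and 16.9% exceeded 4-fold, and 1.12% were lower by 2-fold or more.

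When the genes were summed by *Arabidopsis* ortholog, *IAA29* had the highest ratio of summed FPKM of the 26 sets that were above 0 FPKM in the control. Counting intervals were not made for the other sets, so its place above the next sets is not resolved by counting. The orthologs of *IAA19* (MSG2, which acts in the bending of the hypocotyl in *Arabidopsis*) followed, with 118 FPKM with IAA and 13.0 FPKM in the control over 5 genes, a 9.04-fold difference. The next sets were *IAA20*, with a sum of 5.19 FPKM with IAA and 0.610 FPKM in the control (8.51-fold), and *IAA30*, with 23.0 FPKM with IAA and 4.23 FPKM in the control (5.45-fold). Sets *IAA5* and *IAA32* were listed at 0 FPKM in the control and have no fold, and the bound for *IAA5* does not place it below *IAA29*. By summed level, the *IAA29* set was at place 3 of 28 with IAA and at place 11 in the control, and only the *IAA2* and *IAA16* sets summed to more with IAA. In 3 of the 23 sets with at least 2 genes with values, *IAA29*, *IAA19* and *IAA20*, each gene was at least 4-fold higher with IAA. Some of these genes had few control fragments, with 1 for *BnaA04.IAA.2* and 6 for *BnaC04.IAA.3* (both *IAA20*) and 2 for *BnaA01.IAA.7* (*IAA19*). No counting intervals were made for these genes, so it was not tested whether counting secures their 4-fold calls.

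**Figure D5:**
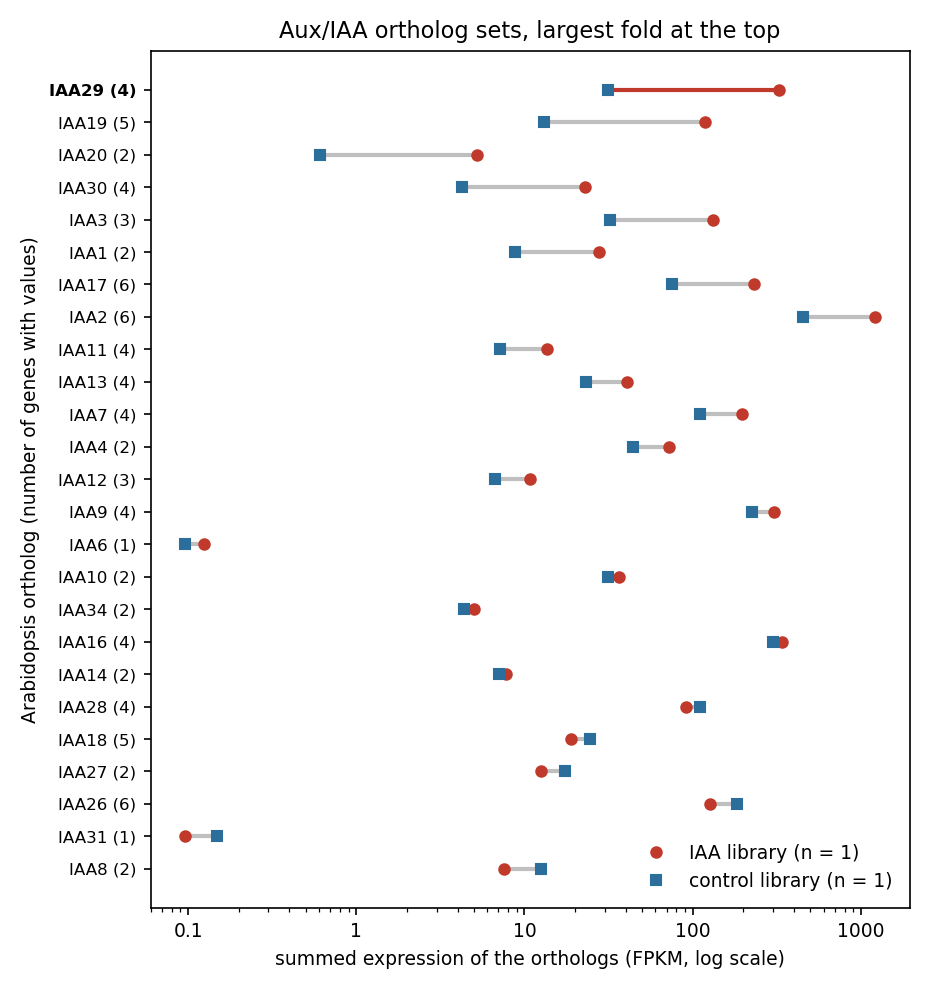
Summed FPKM of the *B. napus* orthologs of each *Arabidopsis Aux/IAA* gene on a log scale, in the IAA library (circles) and the control library (squares), for the 25 sets above 0 FPKM in both, ordered by fold with the largest at the top; the number of genes with values is in brackets. The *IAA29* set, at 324 FPKM with IAA and 31.3 FPKM in the control, has the longest bar.

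Within subgroup B4, to which all *IAA29* orthologs belong, the other genes with values lay below *BnaA01.IAA.1*, *BnaC01.IAA.1* and *BnaA03.IAA.7* in both libraries, whereas *BnaC07.IAA.5* lay within their range. Of the 28 other B4 genes, 11 had values. The highest value among them was 12.3 FPKM in the IAA library and, in a different gene, 2.84 FPKM in the control library. With IAA, 7 of these 11 genes were higher by 2-fold or more and 0 lower by as much. Their median log2 fold change was 1.62. When 3 genes with no more than 3 estimated fragments in either library were left out, 6 of 8 were higher by 2-fold or more and the median was 1.94. Among these other B4 genes with at least 1 FPKM, the largest log2 fold change was in *BnaA07.IAA.1*, an ortholog of *IAA30*, at 3.46 FPKM with IAA and 0.111 FPKM in the control. These are 24 fragments with IAA and 1 in the control, so that the ratio of 31.1 has an interval from 5.05 to 1274. The orthologs of *IAA20*, *IAA30* and *IAA31*, which lack a complete degradation signal in *Arabidopsis*, had values for 7 of 12 genes. Of these 7, 6 were at least 2-fold higher (median log2 fold change 2.23). With 1 gene of no more than 3 fragments in either library left out, 6 of 6 were, and the median was 2.43. Likewise, 6 of the 7 orthologs of *IAA5*, *IAA6* and *IAA19* with values were at least 2-fold higher, and the same 6 at least 4-fold (median 2.79). Without 1 gene at that floor, the median was 3.11, against 3.52 for the *IAA29* orthologs. All 8 orthologs of *IAA1* and *IAA2*, with a median level of 153 FPKM with IAA and 54.7 FPKM in the control, exceeded 2-fold, but 0 of them exceeded 4-fold (median 1.43). The largest difference among these was in *BnaC08.IAA.1*, at 25.6 FPKM with IAA and 7.95 FPKM in the control.

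Both copies had values for 34 homeologous pairs of the family, and both exceeded 2-fold with IAA in 12 pairs and 4-fold in 6. These 6 were the 2 *IAA29* pairs, 2 *IAA19* pairs, 1 *IAA20* pair and 1 *IAA3* pair. The *IAA20* pair and 1 of the *IAA19* pairs hold a copy with few fragments. *BnaA04.IAA.2* (*IAA20*) had 20 with IAA and 1 in the control, and *BnaA01.IAA.7* (*IAA19*) had 16 with IAA and 2 in the control. Ordered by the less changed copy, the A03/C07 pair was at place 1 and the A01/C01 pair at place 3. The gap between the copies of a pair was 0.63 on the scale of log2(FPKM + 0.1) in the A03/C07 pair and 0.51 in the A01/C01 pair, and the median gap of the 27 other pairs described above was 0.21. Of these 27 pairs, 5 had a wider gap than the A03/C07 pair and 7 a wider gap than the A01/C01 pair. The limit of 5 FPKM applies to the sum of a pair, so a gap can come from a copy with hardly any fragments. In the widest gap, 1.65 between *BnaA09.IAA.6* and *BnaC08.IAA.6*, the C copy had 1 fragment with IAA and 0 in the control.

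Outside the *IAA29* orthologs themselves, the *Aux/IAA* genes most like each of them were found by the distance between their log2(FPKM + 0.1) values over the 2 libraries. *BnaA09.IAA.6*, an ortholog of *IAA17* (AXR3), was the nearest of these to *BnaA01.IAA.1*, at a distance of 0.77 log2 units, with 90.7 FPKM with IAA and 17.9 FPKM in the control. *BnaA09.IAA.7*, an *IAA3* ortholog with 68.6 FPKM with IAA and 22.7 FPKM in the control, came next at 1.30. *BnaA10.IAA.2*, an ortholog of *IAA3* (SHY2), was the nearest of these both to *BnaC01.IAA.1*, at 0.77, and to *BnaA03.IAA.7*, at 0.89, with 53.1 FPKM with IAA and 6.90 FPKM in the control. *BnaA09.IAA.6* was the second nearest to these copies, at 0.84 and 1.20. *BnaC07.IAA.5* was farther from any such gene than the other orthologs were. *BnaA04R.IAA.1*, an *IAA30* ortholog with 12.3 FPKM with IAA and 1.92 FPKM in the control, was the nearest to it at 1.65, and *BnaA03R.IAA.1*, an *IAA11* ortholog with 5.89 FPKM with IAA and 1.50 FPKM in the control, followed at 1.68. A likeness over 2 libraries describes level and fold, and says nothing more.

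The genes around the *IAA29* orthologs mostly differed little between the libraries. For each ortholog the 5 nearest genes with values on each side were taken by gene number, a choice made after the data had been seen. Among these 40 genes, 2 were higher by 2-fold or more with IAA and 0 lower by as much. Over all genes, 4.22% were higher and 8.68% lower by 2-fold or more. The log2 fold changes of the 40 genes lay between -0.64 and 1.16 with a median of 0.15. Both genes past 2-fold lay near *BnaA03.IAA.7*. BnaA03g51980D was at 1.44 FPKM with IAA and 0.588 FPKM in the control, and BnaA03g51890D at 2.62 FPKM with IAA and 1.12 FPKM in the control. The smallest log2 fold change of an *IAA29* ortholog, 2.91, lay above those of all 40 neighbouring genes. Since the orthologs were proposed with their response known, nothing is read from that contrast.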

How the data were processed

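Per the labels and the methods of the study, the authors made TruSeq libraries, used Darmor-*bzh* v4.2 as the reference and deposited a table of FPKM, scaled within each library. The processing notes of the submitters name bcl2fastq 2.18, HISAT2 2.0.4 (mapping) and Cufflinks 2.2.1 (FPKM). Columns were assigned to samples by their titles. The *IAA29* orthologs were chosen with earlier results of these data known. Gene names, positions, lengths, homeologs, subgroups and *Arabidopsis* orthologs come from the gene tables of the study. Named genes were the *IAA29* orthologs, for each the 2 nearest other *Aux/IAA* genes over both libraries, and from each related group the gene that differed most on the log2 scale, if it reached 1 FPKM in either library.

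Fold changes were IAA over control, as ratios of FPKM or as log2 after adding 0.1 FPKM. Fragments were estimated as FPKM times effective length times depth. Length was taken as the coding part, with 1 bp added per exon, and any stretch of the gene beyond its reading frame. The depth and a fragment length of 195 bp were those that turned values below 8 fragments into whole numbers, with 8 genes in the IAA library and 13 in the control library. Up to 20 fragments, 14 of 16 genes in the IAA library and 22 of 22 in the control library lay within 0.1 of a whole fragment, and these include the genes used for the choice. Intervals were exact (binomial, Poisson or conditional odds ratio) at 95%. Methods were tested on simulated data. Python 3.11.15, numpy 2.4.6, pandas 2.3.3, scipy 1.17.1 and matplotlib 3.10.9 were used. Other auxin pathway genes and sequences were not analysed here, since 0 gene identifiers of the deposited table matched the reference table.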

Additional observations from a re-analysis of the deposited data

How the results depend on the processing

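No paired analysis was possible because IAA and control were sequenced in 1 library each. The 4 *IAA29* orthologs stayed at least 2-fold higher, and 0 of them lower, with pseudocounts of 1 and 0.01 FPKM, with the IAA library centred or scaled to the upper quartile, with genes under 1 FPKM in both libraries left out, and at a fold threshold of 4. Of 74 recomputed values, 62 stayed the same or within their counting interval and 12 did not. With a pseudocount of 1 FPKM the log2 fold change of *BnaC07.IAA.5* was 3.10, below its counting interval, since the added value exceeds its control level. Of the other 11, 9 were places of single genes in the family. By median log2 fold change the *IAA29* set was at place 2 among the *Arabidopsis* sets, at place 1 with a pseudocount of 1 FPKM and at place 3 with 0.01 FPKM, because the pseudocount sets the change of genes listed at 0 FPKM. The shift by centring was 0.09 log2 units. Depth limits *BnaC07.IAA.5* most, with 7 estimated control fragments. The planned lists of other auxin pathway genes and the sequence features were not run.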
